A study of Mus musculus with 11 samples.

Results

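The comparison described here is that of skin treated with imiquimod (IMQ) cream with skin treated with vehicle cream, in 6 of the 11 RNA sequencing libraries of a study that also sequenced the small intestine. The members were chosen by their labels: 3 libraries of control skin (control 1, 2 and 3) and 3 of IMQ-treated skin (IMQ 4, 5 and 6). The mice were BALB/c animals of 8 to 10 weeks that received 62.5 mg of cream per day for 5 to 8 days on the right ear and on the shaved skin of the back. The treated group received Aldara cream with 5% IMQ and the control group received Vaseline. Because the active cream and the vehicle have different bases, IMQ and the base of the Aldara cream cannot be told apart in this comparison. The days of treatment of each mouse, and whether the RNA came from the back or from the ear, were not given in the labels. The labels do not say that each library came from a separate mouse, so the p-values measure the spread between these samples.

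IMQ is a ligand of TLR7, an endosomal receptor for single-stranded RNA that signals through MyD88 to NF-kB and to interferon genes. Repeated application to mouse skin produces a scaling dermatitis used as a model of psoriasis, in which IL-23 drives T cells to make IL-17A, IL-17F and IL-22. These cytokines act on keratinocytes, which then make neutrophil chemokines, antimicrobial proteins and the keratins of a wounded epidermis.

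The libraries held between 44995414 and 52492181 counts over all genes. All 6 carried the RNA of skin: Krt10, a keratin of the suprabasal epidermis, had a mean FPKM (fragments per kilobase of transcript, scaled to sequencing depth) of 3138 ± 1449.7 (SD, n = 3) in the controls and 2475 ± 937 in the IMQ libraries. Control 2 differed from the other controls before any comparison with IMQ. All 31 genes of a list of intestinal markers had a count in control 2, where the median gene stood at 1.43% of the small intestine of control mice, against 13 and 17 genes in controls 1 and 3. The highest gene of the list stood at 51.4%, 133% and 48.3% of that level in controls 1, 2 and 3. In IMQ 4, 5 and 6 it stood at 102%, 130% and 107%. A count of a listed gene is therefore no sign of intestinal RNA by itself. Fabp2, a fatty acid carrier of enterocytes, had normalized counts of 0, 5035 and 0 in controls 1, 2 and 3 and 148, 131 and 0 in IMQ 4, 5 and 6. Low counts of intestinal genes were thus also found in IMQ 4 and 5, where 23 and 28 of the 31 markers had a count. In control 2, all 28 tested genes of mitosis were below both other controls, whereas all 19 tested adipocyte genes, all 17 skeletal muscle genes and all 18 Langerhans and dendritic cell genes were above them. The part that these differences play in the results below was not tested, and the counts of the gene lists are given with and without control 2. Control 2 was singled out because earlier results of these data had shown intestinal transcripts and low hair genes in it. All normalized counts are given in the order control 1, 2, 3 and IMQ 4, 5, 6.

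IMQ-treated skin differed from control skin in 1382 of the 20512 genes with a count in all 6 libraries, which is 6.74% of them. A gene is called here at an adjusted p under 0.05 in the quasi-likelihood test of edgeR. Of all tested genes, 830 (4.05%) rose and 552 (2.69%) fell. The median log2 fold change of all tested genes was -0.014. In 15.1% of all tested genes every IMQ library lay above every control, and in 13.3% every IMQ library lay below every control. Without control 2, 2521 of 20752 genes (12.1%) were called, of which 1139 (5.49%) were higher and 1382 (6.66%) were lower. With and without control 2, 753 genes were called higher in both cases, which is 90.7% of the first list and 66.1% of the second, and 507 genes were called lower in both, which is 91.8% and 36.7%. The number of calls also depended on the other libraries, with 325 calls without control 1, 934 without control 3, 468 without IMQ 4, 258 without IMQ 5 (1.24%, and 1.06% of genes higher) and 687 without IMQ 6. A total of 230 genes, 198 higher and 32 lower, were called in every one of these fits. The Wald test of DESeq2 called 3030 of the 20512 genes (14.8%), of which 1514 (7.38%) were higher and 1516 (7.39%) were lower. These shares of all tested genes are the background for the list counts below, each for its own fit. In bulk RNA of skin, fewer cells of a type and less RNA per cell cannot be told apart.

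**Figure D1:**
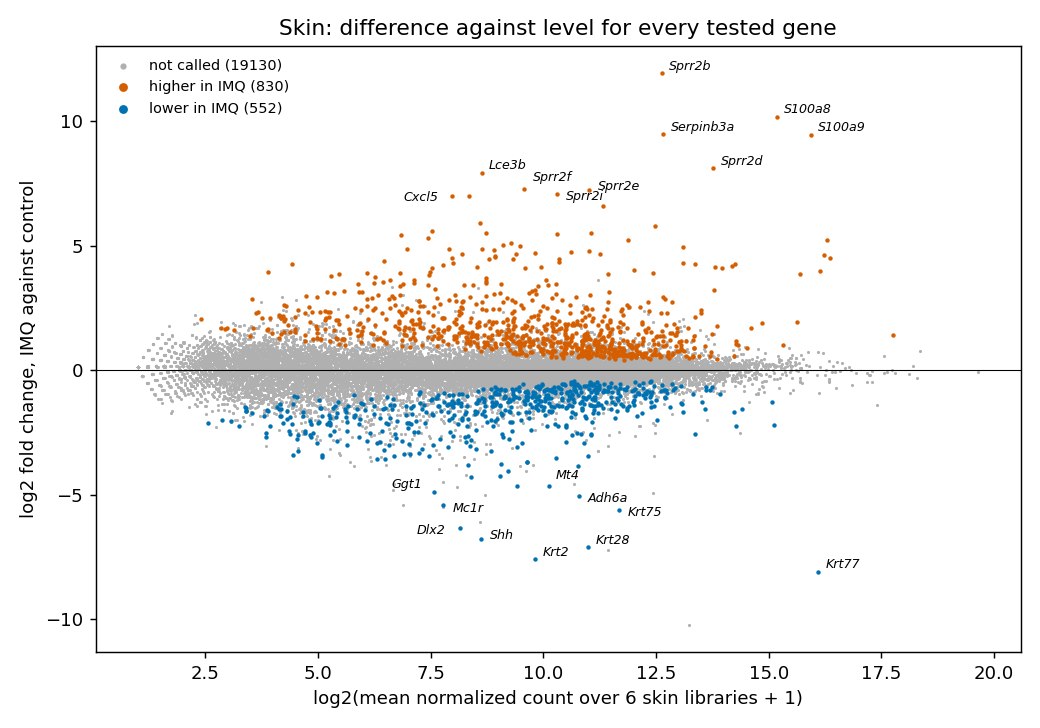
The log2 fold change of IMQ against control skin (y axis) is plotted against the log2 mean normalized count plus 1 (x axis) for the 20512 tested genes, with 830 genes called higher in orange and 552 called lower in blue. The named genes are the 10 largest rises and the 10 largest falls, from Sprr2b at 11.91 to Krt77 at -8.08.

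Among called genes with a mean of at least 50 normalized counts and no overlap between the groups, the 10 largest rises were Sprr2b, S100a8, Serpinb3a, S100a9, Sprr2d, Lce3b, Sprr2f, Sprr2e, Sprr2i and Cxcl5. Of these, 6 encode precursors of the cornified envelope, the cross-linked protein shell of the outermost keratinocytes, from the Sprr2 (small proline-rich) and Lce3 (late cornified envelope) families. The 10 largest falls were Krt77, Krt2, Krt28, Shh, Dlx2, Krt75, Mc1r, Adh6a, Ggt1 and Mt4. They include keratins of the resting epidermis and of the hair follicle as well as Shh, a signal of the growing hair bulb. Ggt1, an enzyme that cleaves glutathione outside the cell, had 300.4, 243 and 564 normalized counts in the controls and 9.84, 11.3 and 15.9 in the IMQ libraries. Adh6a, an alcohol dehydrogenase, had 2929.8, 6381 and 931 in the controls against 52.5, 213 and 42.4 in the IMQ libraries. Dlx2, a homeobox transcription factor, had 681, 38.2 and 954 in the controls against 8.74, 5.14 and 6.36 in the IMQ libraries, and control 2 was its lowest control.

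Sprr2b had normalized counts of 3.62, 2.18 and 3.49 in the controls and 23635, 8716 and 5525 in the IMQ libraries, a log2 fold change of 11.91 ± 0.86 (SE; edgeR adjusted p = 0.0022). Every control was near the limit of detection, and among the IMQ libraries IMQ 4 was the highest and IMQ 6 the lowest. Its neighbor Sprr2d went from 143, 111 and 48.8 to 44578, 23518 and 15522 (log2 fold change 8.11 ± 0.64), again with IMQ 4 the highest and IMQ 6 the lowest. Sprr2h rose less, from 793, 324 and 298 to 12902, 6564 and 3881 (log2 fold change 4.04 ± 0.59). In all 3 genes the groups did not overlap, which the rule for the largest rises required of Sprr2b and Sprr2d.

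The Sprr2 genes lie side by side on chromosome 3, and the sequences before the starts of these 3 are shown because the genes rose together. Each is the 250 bases before the RefSeq gene start in GRCm38.p6 on the plus strand, 5′ to 3′, with capitals for an AP-1 motif (TGANTCA, which reads alike on both strands) and for a TATA box (TATAAA, on either strand).
Sprr2b, chr3:92316455-92316704: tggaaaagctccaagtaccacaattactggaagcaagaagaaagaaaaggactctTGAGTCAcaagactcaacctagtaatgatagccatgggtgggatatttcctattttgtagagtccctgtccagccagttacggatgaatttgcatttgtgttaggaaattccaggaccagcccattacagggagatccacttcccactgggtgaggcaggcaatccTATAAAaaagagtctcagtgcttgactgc
Sprr2d, chr3:92338890-92339139: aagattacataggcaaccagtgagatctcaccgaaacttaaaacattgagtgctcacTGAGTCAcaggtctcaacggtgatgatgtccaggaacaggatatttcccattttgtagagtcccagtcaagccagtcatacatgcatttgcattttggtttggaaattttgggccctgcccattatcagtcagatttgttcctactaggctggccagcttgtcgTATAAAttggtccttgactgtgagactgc
Sprr2h, chr3:92385435-92385684: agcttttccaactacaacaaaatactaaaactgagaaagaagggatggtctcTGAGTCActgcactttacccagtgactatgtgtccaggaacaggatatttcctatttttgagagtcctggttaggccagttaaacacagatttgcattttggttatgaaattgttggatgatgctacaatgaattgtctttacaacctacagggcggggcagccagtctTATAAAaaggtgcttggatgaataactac
The AP-1 motif began 195, 193 and 198 bases before the start of Sprr2b, Sprr2d and Sprr2h, and the TATA box began 29 bases before each start. Of the 10 Sprr2 genes with a sequence, 7 held both motifs, with the first AP-1 motif 193 to 198 bases before the start in each, and Sprr2a1, Sprr2a2 and Sprr2a3 held neither. Sprr2a1 and Sprr2a2, whose 250 bases were identical rose by 4.19 and 4.27 on the log2 scale. Among all 32851 promoter sequences of this length, 6.75% held the AP-1 motif and 12.4% the TATA box. A match describes the letters of the sequence and is no evidence of binding.

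The list of stress-induced envelope genes (Sprr and Lce3) had 22 members, of which 18 were tested, 16 rose and 0 fell, against 4.05% of all tested genes that rose, with a median log2 fold change of 4.91 against -0.014 for all tested genes. Without control 2, 16 rose of 19 tested, and without IMQ 5 the number was 10. Lce3b, one of the Lce3 genes of wounded and psoriatic epidermis, went from 3.62, 2.18 and 3.49 to 1409, 734 and 229 (log2 fold change 7.92 ± 0.87). Sprr1b, a precursor made early in squamous stress, went from 5838, 2651 and 2462 to 31001, 18508 and 9296 (log2 fold change 2.42 ± 0.52, edgeR adjusted p = 0.043), a call lost without any library other than IMQ 6. Members that were not called were Sprr1a (log2 fold change 0.0048) and Sprr4 (-2.46). Lce3a was not tested because a library had no count, and it had 2 counts in the 3 controls together and 1763 in the 3 IMQ libraries, a ratio of 987 (95% interval 273 to 8157), where the interval covers counting error only. Reads of near-identical Sprr2 and Lce3 genes could be split between them in a way the sources used here do not state.

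Of 27 tested genes of the ordinary late envelope, 2 rose, 0 fell and 25 did not pass the test, with a median of 0.41. Lor, which encodes loricrin, the main protein of the envelope, had 50919.7, 43971 and 26777 in the controls and 58922, 54610.1 and 25317 in the IMQ libraries, with a log2 fold change of 0.19 ± 0.37. Flg, the precursor of filaggrin, had 157191, 66558 and 48138 in the controls against 180178, 112998 and 39625 in the IMQ libraries, and Ivl, involucrin, had 8131, 8641 and 3252 in the controls against 12941, 6919.7 and 3557 in the IMQ libraries. In these genes the groups overlapped, with control 3 and IMQ 6 the lowest of their groups, and the sign of the log2 fold change of all 3 turned when control 3 or IMQ 4 was left out. The called genes were Rptn, repetin, which went from 2199, 2580.1 and 482 to 59391, 23262 and 8623 (log2 fold change 4.12 ± 0.90), and Casp14, the protease that processes filaggrin (log2 fold change 1.68 ± 0.37). The called share, 7.41%, was close to the 6.74% of all tested genes. Both calls were lost without control 2, where 0 genes of the list rose and 2 fell, and 0 rose when control 1, control 3, IMQ 4 or IMQ 5 was left out.

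Of the antimicrobial proteins and alarmins 8 of 16 tested rose in IMQ-treated skin, against 4.05% of all tested genes. S100a8 and S100a9, the subunits of calprotectin, which binds metals and attracts neutrophils, rose by 10.16 ± 0.48 and 9.46 ± 0.26 on the log2 scale (edgeR adjusted p = 0.00054 and 7.6e-05). S100a8 had normalized counts of 57.003, 34.9 and 101 in the controls and 76212, 81593 and 65443 in the IMQ libraries. S100a9 had 155, 201 and 175 in the controls against 127167, 137277 and 108797 in the IMQ libraries. Every IMQ library lay above every control for both genes, which the rule for the largest rises required. The genes lie at chr3:90669071-90670034 and chr3:90692630-90695721 (GRCm38.p6). By mean FPKM, S100a9 ranked 5 of 45777 genes in the IMQ libraries, with 4300.1 ± 443, and 8955 in the controls, with 6.30 ± 0.593.

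Lcn2, lipocalin 2, which withholds iron from bacteria, went from 219, 176 and 198 to 4218, 7134 and 10707 (log2 fold change 5.22 ± 0.37). Saa3, an acute phase apolipoprotein, went from 68.8, 11.995 and 73.2 to 3893, 3820.3 and 7442 (log2 fold change 6.59 ± 0.65). Slpi, an inhibitor of neutrophil proteases, rose by 4.48 ± 0.41 on the log2 scale, and Chil1, a chitinase-like protein, rose by 4.27 ± 0.33 on the log2 scale. Of the 22 listed genes, 16 were tested, 8 rose and 0 fell, with a median of 2.52, 11 rose of 18 tested without control 2, and 6 to 9 rose when another library was left out. Defb3, a beta-defensin of keratinocytes, could not be tested, with 0, 0 and 2 counts in the controls. It had 5358, 2442 and 1983 normalized counts in the IMQ libraries, a ratio of summed counts of 5122 (95% interval 1417 to 42297), which covers counting error only. Reg3g, a lectin of gut and inflamed epithelium, had 0, 1808 and 0 in the controls and 22.9, 48.3 and 18.03 in the IMQ libraries, with the highest value in control 2, which also held the intestinal transcripts.

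**Figure D2:**
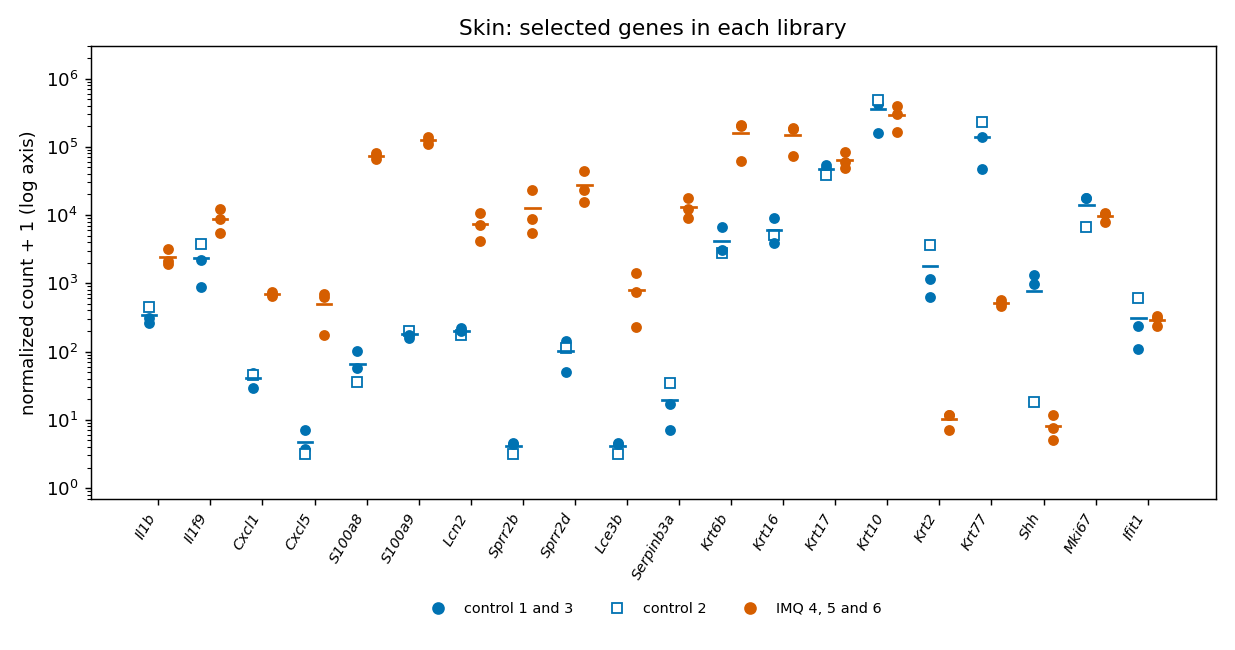
Each column shows 1 gene and each point the normalized count plus 1 of 1 library on a log axis, with controls in blue (control 2 as an open square) and IMQ libraries in orange, and bars mark the group means. S100a8 and S100a9 lie at 34.9 to 201 in the controls and at 65443 or more in the IMQ libraries, whereas the points of Krt17, Krt10 and Ifit1 overlap.

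Keratins changed in both directions. Krt6a, Krt6b and Krt16, the keratins of activated keratinocytes in wounds and psoriasis, rose, and Krt17, which is listed with them, was not called. Krt6b went from 6599.6, 2779.6 and 3030.0 to 202963, 204973 and 62033 (log2 fold change 5.24 ± 0.63, edgeR adjusted p = 0.0077). Krt16 went from 8942, 5090.3 and 3937 to 183428, 186690.0 and 74094 (log2 fold change 4.63 ± 0.51), and Krt6a rose by 3.99 ± 0.44 on the log2 scale. IMQ 6 was the lowest IMQ library for each of the 3 genes but still above every control, and the 3 calls held whichever library was left out. Krt17, which the hair follicle also makes, had 49092, 38691 and 53165 in the controls and 48488, 84772 and 60791 in the IMQ libraries (log2 fold change 0.46 ± 0.25), with overlapping groups. Krt6a and Krt6b are close paralogs, so the split of reads between them is uncertain.

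Krt77 and Krt2, keratins of the differentiated interfollicular epidermis, showed the largest falls among the genes named by that rule. Krt77 had 140456, 232002 and 47585 in the controls and 462, 569 and 519.6 in the IMQ libraries, a log2 fold change of -8.08 ± 0.69 (edgeR adjusted p = 0.0029). By mean FPKM it ranked 36 of 45777 genes in the controls and 11031 in the IMQ libraries. Krt2 went from 1152, 3625 and 621 to 10.9, 6.17 and 10.6 (log2 fold change -7.59 ± 0.86). Control 2 was the highest control for both, and the log2 fold change without it was -7.50 for Krt77 and -6.57 for Krt2. Krt15, a keratin of basal and bulge stem cells, fell from 25868, 44237 and 28298 to 6585, 6632 and 7389 (log2 fold change -2.26 ± 0.23). These 3 falls were called whichever library was left out.

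The main keratins of the epidermis differed less. Krt14, the basal keratin, had 133186, 141850.0 and 89360.5 in the controls and 360935, 375291 and 232579 in the IMQ libraries and rose by 1.41 ± 0.31 on the log2 scale (edgeR adjusted p = 0.045), a call lost whichever library was left out (adjusted p up to 0.18). Its partner Krt5 had 163568, 169383 and 131879 in the controls against 226001, 247806 and 219751 in the IMQ libraries and was not called (log2 fold change 0.58 ± 0.22). The suprabasal pair Krt1 and Krt10 had log2 fold changes of 0.78 ± 0.48 and -0.29 ± 0.51 and was not called either. In all, 1 of 11 tested epidermal keratins rose and 3 fell, against 4.05% and 2.69% of all tested genes. The numbers were 0 and 3 whichever library was left out, control 2 included. Mt4, a metallothionein of stratified epithelium, fell with Krt2 and Krt77, from 2036, 3283 and 1077 to 115, 92.6 and 46.7 (log2 fold change -4.65 ± 0.52).

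Protease inhibitors and proteases of the epidermis rose in part. Serpinb3a, a clade B serpin related to the human squamous cell carcinoma antigens, went from 16.3, 33.8 and 6.10 to 17693, 12171 and 8985 (log2 fold change 9.47 ± 0.61, edgeR adjusted p = 0.0014). Its paralogs Serpinb3b and Serpinb3c rose by 3.24 ± 0.39 and 3.49 ± 0.31 on the log2 scale, with reads that could be shared between them. Serpinb3d had no count in any control and was at least 137-fold higher in the IMQ libraries, counted from a floor of 3 counts per control library. Of 14 tested clade B serpins 5 rose and 0 fell, a share of 35.7% against 6.74% of all tested genes. The number that rose was 6 without control 2 and 3 without control 1, control 3 or IMQ 5. Klk14 and Klk13, serine proteases that cleave the links between corneocytes, rose, and the other 11 of 13 tested genes of the kallikrein list did not pass (without control 2, 3 rose and 1 fell, and without IMQ 6, 5 rose). The called share of this list with all 6 libraries was 15.4%, against 6.74% of all tested genes. Klk14 went from 20.8, 19.6 and 14.8 to 999.9, 817 and 686 (log2 fold change 5.50 ± 0.26), and Klk13 rose by 3.91 ± 0.53 on the log2 scale.

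Of the tested genes of the IL-1 and IL-36 family 7 of 23 rose, and of the IL-23 and IL-17 axis 5 of 22, against 4.05% of all tested genes. Il1b, the secreted IL-1 of myeloid cells, had 305, 446 and 259 in the controls and 2141, 3155 and 1912 in the IMQ libraries and rose by 2.84 ± 0.28 on the log2 scale (edgeR adjusted p = 0.0043). Il1f6, which encodes IL-36 alpha of keratinocytes, went from 539, 926 and 227 to 8311, 4027 and 2702 (log2 fold change 3.15 ± 0.61), and Il33, an alarmin of epithelial nuclei, rose by 2.04 ± 0.29 on the log2 scale. Il1f9, which encodes IL-36 gamma, had 2222, 3822 and 886 in the controls against 12119, 8648 and 5432 in the IMQ libraries and did not pass with all 6 libraries (log2 fold change 1.92 ± 0.54), although its groups did not overlap. Its control 2 value was the highest of the controls, and without that library it passed, with 2.49. Of 23 tested members 7 rose and 0 fell, with a median of 0.96, against 11 without control 2, 1 without control 1 or IMQ 5 and 3 without IMQ 4.

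Il17a, Il17f and Il17c had no count in any control and counts in the IMQ libraries. Il17a had 0 counts in the 3 controls and normalized counts of 87.4, 73.01 and 258 in the IMQ libraries, at least 48.6-fold higher. Il17f had 0 in the controls and 129, 114 and 587 in the IMQ libraries, at least 96.6-fold higher, and IMQ 6 was the highest for both. Il22, which blocks keratinocyte differentiation, had 15.3, 0 and 33.9 normalized counts, with none in IMQ 5, and Il24, a related cytokine of keratinocytes, was at least 33.8-fold higher. Il19, also of the IL-10 family, had 7 counts in the controls, all in control 1, and 1803 in the IMQ libraries, a ratio of 288 (95% interval 139.7 to 718) by counting error. These genes were not tested because at least 1 library had no count. Il17c, the epithelial IL-17, was at least 11.7-fold higher.

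Upstream of them, Il23a, the p19 subunit of IL-23, had 10.9, 30.5 and 9.59 in the controls and 138, 75.1 and 69.99 in the IMQ libraries and rose by 2.49 ± 0.53 on the log2 scale (edgeR adjusted p = 0.040). Il23r, its receptor on IL-17-producing lymphocytes, went from 16.3, 13.1 and 13.1 to 127, 219 and 289 (log2 fold change 3.89 ± 0.39). The rise of Il23r was called whichever library was left out, whereas that of Il23a was lost without any library other than control 2. Il12rb1, the chain that the receptors of IL-12 and IL-23 share, rose by 1.37 ± 0.30 on the log2 scale, a call lost whichever library was left out, and Il12rb2, the chain specific to IL-12, fell from 896, 649.9 and 504 to 227, 307 and 232 (log2 fold change -1.42 ± 0.26). Of 28 listed genes of the IL-23 and IL-17 axis 22 were tested, 5 rose and 1 fell. Without control 2, 8 rose and 1 fell, and the number that rose was 1 without control 1, IMQ 4 or IMQ 5 and 2 without control 3 or IMQ 6.

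Of 19 tested genes of the IL-6 and STAT3 list, 7 rose and 0 fell (8 without control 2, 3 without IMQ 5 and 4 without control 1). With all 6 libraries this was a share of 36.8%, against 6.74% of all tested genes. Il6 itself had 21.7, 25.1 and 11.3 in the controls against 77.6, 141 and 89.1 in the IMQ libraries and rose by 2.41 ± 0.40 on the log2 scale. Bcl3, a nuclear cofactor of NF-kB that STAT3 induces, went from 746, 658 and 667 to 2918, 2621 and 2624 (log2 fold change 1.98 ± 0.11, edgeR adjusted p = 0.00078). Socs3, the feedback inhibitor of STAT3, rose by 1.52 ± 0.19 on the log2 scale, and Lif and Osm, cytokines of the IL-6 family, rose by 1.92 ± 0.23 and 2.50 ± 0.35 on the log2 scale. Among ligands of the EGF receptor family, Hbegf, Epgn and Nrg1 rose (log2 fold change 2.94 ± 0.58, 2.52 ± 0.47 and 2.72 ± 0.39). Lrig1, an inhibitor of that receptor, fell from 8380.3, 7043 and 8689 to 4729, 4159 and 4718 (log2 fold change -0.83 ± 0.13). Of 13 genes of this list 3 rose and 1 fell, a called share of 30.8% against 6.74% of all tested genes. The number that rose was 2 without control 2, 0 without control 1 or IMQ 5, 1 without control 3 and 5 without IMQ 6.

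Of 24 tested members of the TLR7 pathway 8 rose and 0 fell, with a median of 0.49, against 4.05% of all tested genes that rose. The number that rose was 11 without control 2, 2 without control 1, IMQ 4 or IMQ 5 and 3 without IMQ 6. Tlr7, the receptor of IMQ, had 453, 339 and 221 in the controls and 793, 919 and 671 in the IMQ libraries and rose by 1.23 ± 0.28 on the log2 scale (edgeR adjusted p = 0.048). That call was lost whichever library was left out, with adjusted p up to 0.18. The groups of Tlr7 did not overlap, as in 15.1% of all tested genes in this direction. Unc93b1, which carries endosomal TLRs from the endoplasmic reticulum, went from 2709.9, 2508 and 1913 to 7882, 6434 and 7673 (log2 fold change 1.62 ± 0.16), and Myd88, the adaptor, from 1965, 2095 and 1787 to 3836, 3895 and 3458 (log2 fold change 0.94 ± 0.11). These 2 calls held whichever library was left out.

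Of 37 tested interferon-induced genes 0 rose and 0 fell in edgeR's test with all 6 libraries, where 4 had an unadjusted p under 0.05. With the filterByExpr filter of edgeR 1 rose, and 1 rose by the Wald test of DESeq2. The median was -0.046. Ifit1, an RNA-binding antiviral protein, had 108, 602 and 233 in the controls and 314, 326 and 239.6 in the IMQ libraries (log2 fold change -0.10 ± 0.57). Control 2 had the highest control value in 36 of the 37 genes and exceeded every IMQ library in 27 of them. Without it 6 genes rose, against 5.49% of all tested genes, with a median of 0.36. Among these were Oas2, which senses double-stranded RNA, with 774, 1267 and 577 in the controls against 1391, 1738 and 1217 in the IMQ libraries, and Ifi44, with 258, 502 and 270.2 in the controls against 657, 486 and 579 in the IMQ libraries. The sign of Ifit1 and Isg15 turned when control 2 was left out, to 0.78 and 0.17.

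**Figure D3:**
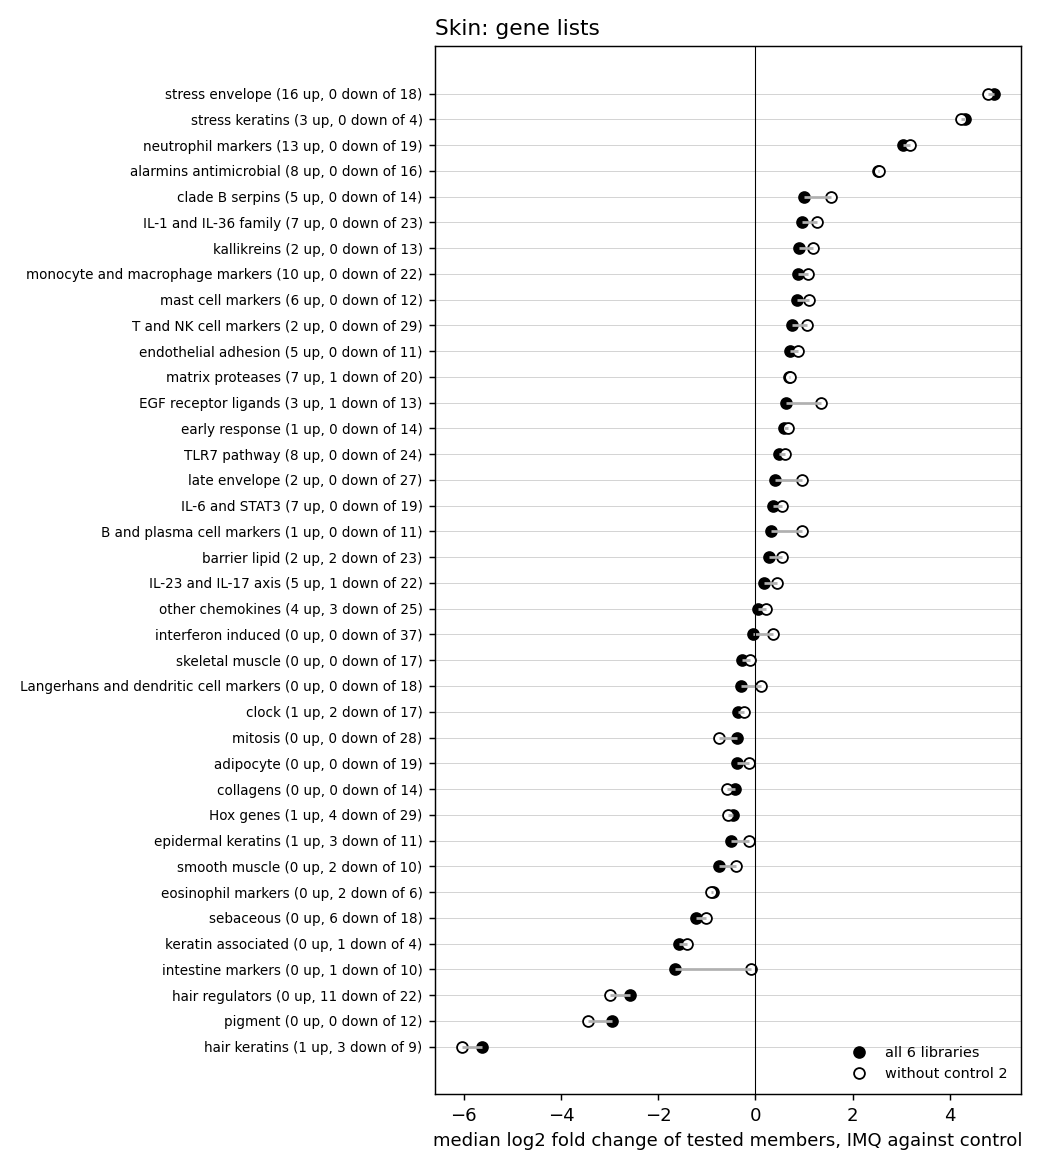
For each list with at least 4 tested genes, the filled circle gives the median log2 fold change of the tested members with all 6 libraries and the open circle the median without control 2, and the axis labels give the number called up and down. Stress envelope genes (4.91) and hair keratins (-5.62) lie at the ends, and the list of interferon-induced genes crosses 0 between the 2 settings.

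Both tested neutrophil chemokines and 13 of 19 tested neutrophil markers rose, against 4.05% of all tested genes. Cxcl1, a ligand of the receptor CXCR2, had 47.95, 44.7 and 27.9 in the controls and 753, 705 and 648 in the IMQ libraries and rose by 4.13 ± 0.26 on the log2 scale (edgeR adjusted p = 0.0013). Cxcl5, a ligand of the same receptor, went from 2.71, 2.18 and 6.10 to 173, 623 and 704 (log2 fold change 7.01 ± 0.74), with IMQ 4 the lowest. Both calls held whichever library was left out. The other 5 genes of the list were not tested because a library had no count. Of these, Cxcl2 had 0, 7.63 and 30.5 in the controls against 478, 753 and 161 in the IMQ libraries, a ratio of summed counts of 35.2 (95% interval 25.9 to 49.1) by counting error. Csf3, the growth factor G-CSF, had 0 counts in the controls and was at least 22.6-fold higher.

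The sequences of Cxcl1 and its neighbor Cxcl2 are shown because each holds a pair of NF-kB motifs (GGG, any 2 bases and TTTCC on either strand, in capitals). They are the 250 bases before the RefSeq gene start in GRCm38.p6 on the plus strand, 5′ to 3′.
Cxcl1, chr5:90890995-90891244: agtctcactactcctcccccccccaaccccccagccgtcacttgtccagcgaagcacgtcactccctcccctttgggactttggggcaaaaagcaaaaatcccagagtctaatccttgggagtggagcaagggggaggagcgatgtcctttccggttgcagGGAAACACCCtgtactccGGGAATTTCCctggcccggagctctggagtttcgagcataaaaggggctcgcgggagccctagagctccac
Cxcl2, chr5:90903649-90903898: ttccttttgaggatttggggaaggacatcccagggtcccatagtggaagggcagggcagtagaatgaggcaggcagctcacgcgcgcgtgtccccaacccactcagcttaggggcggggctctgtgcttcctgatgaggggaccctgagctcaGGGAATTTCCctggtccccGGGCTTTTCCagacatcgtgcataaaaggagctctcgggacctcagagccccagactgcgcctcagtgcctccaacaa
The motifs began 89 and 71 bases before the start of Cxcl1 and 97 and 78 bases before the start of Cxcl2, and 1.41% of all promoter sequences of this length held at least 1. Because Cxcl1 and Cxcl2 were picked for holding the motif, this share is no test of them. Of the other genes of the list, Cxcl3 held 1 motif, Ppbp and Cxcl15 held none, and Cxcl5 and Csf3 had no entry among the promoter sequences. As for AP-1, this describes letters and not binding.

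Of 19 tested neutrophil markers 13 rose and 0 fell, with a median of 3.04, where 4.05% of all tested genes rose. Without control 2, 13 rose, and 10 to 12 rose when another library was left out. In edgeR's test without control 3, 1 marker fell, and by the Wald test of DESeq2 13 rose and 1 fell. Csf3r, the receptor of G-CSF, went from 535, 455 and 374 to 3592, 4147 and 3442 (log2 fold change 3.04 ± 0.17). Fpr1, a receptor for formylated bacterial peptides, went from 9.95, 2.18 and 2.62 to 757, 437 and 748 (log2 fold change 6.98 ± 0.54), and Mmp8, neutrophil collagenase, rose by 3.49 ± 0.36 on the log2 scale. Stfa3, an inhibitor of cysteine proteases, ranked 4 of 45777 genes by mean FPKM in the IMQ libraries and rose by 3.85 ± 0.19 on the log2 scale, with paralogs that could share its reads. It already ranked 171 in the controls, with 314 ± 37.4 FPKM, where Csf3r had 2.36 ± 0.47. Which cells made Stfa3 was not tested, nor which made Stfa1, Stfa2, Stfa2l1 and Asprv1, which the list also holds. The number of markers that rose is thus no measure of neutrophils alone. Ly6g, the surface marker of mouse neutrophils, was close to 0 in all libraries, with 3 counts in the controls together and 15 in the IMQ libraries together, and was not tested.

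Of the macrophage markers 10 of 22 tested rose, against 4.05% of all tested genes. Adgre1, which encodes F4/80, had 1846, 2045 and 876 in the controls and 13253, 10408 and 11308 in the IMQ libraries and rose by 2.88 ± 0.32 on the log2 scale (edgeR adjusted p = 0.0062). Itgam, the integrin CD11b of myeloid cells, went from 1934, 1554 and 968 to 12172, 10817 and 11241 (log2 fold change 2.94 ± 0.26), and Cd14, a coreceptor for bacterial lipids, rose by 2.14 ± 0.20 on the log2 scale. None of the 22 fell, and 10 rose without control 2 and 6 without IMQ 5. Of 25 other chemokines tested 4 rose and 3 fell, against 4.05% and 2.69% of all tested genes. Without control 2, 6 rose and 2 fell, against 5.49% and 6.66% of all tested genes. Without control 1, 1 rose and 1 fell, without IMQ 5, 1 rose and 0 fell, and 1 fell without IMQ 4 or IMQ 6. The chemokine Cxcl13, which attracts B cells, went from 231, 192 and 187 to 6101, 6765 and 20636 (log2 fold change 5.78 ± 0.57), with IMQ 6 the highest. Ccl3 and Ccl4, chemokines of the CC family, rose by 2.91 ± 0.47 and 3.49 ± 0.49 on the log2 scale, and Ccl27a, a keratinocyte chemokine for skin-homing T cells, fell from 985, 1337 and 848 to 252, 335 and 376 (log2 fold change -1.72 ± 0.23).

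Of the lymphocyte markers few were called. Trdc, the constant region of the T cell receptor delta chain, had 116, 355 and 166 in the controls and 784, 1234 and 2506 in the IMQ libraries and rose by 2.83 ± 0.57 on the log2 scale (edgeR adjusted p = 0.035). Zap70, a kinase of that receptor, rose by 1.94 ± 0.43 on the log2 scale. Cd3e, a subunit common to T cell receptors, had 183, 364 and 201 in the controls against 349.7, 501 and 1104 in the IMQ libraries and did not pass (log2 fold change 1.39 ± 0.48), with control 2 above IMQ 4 and so with overlapping groups. Of 29 tested T and NK cell markers 2 rose and 0 fell, and none was called without control 1, control 3, IMQ 5 or IMQ 6. Without control 2, 4 rose, where 5.49% of all tested genes rose. The called share with all 6 libraries, 6.90%, was close to the 6.74% of all tested genes. By the Wald test of DESeq2, 11 of the 29 rose, against 7.38% of all tested genes. Of 11 tested B and plasma cell markers only Cd79b was called with all 6 libraries, a share of 9.09% against 6.74% of all tested genes, and 2 rose without control 2. Cd79b rose (log2 fold change 3.42 ± 0.43), with 30.8, 44.7 and 13.1 in the controls against 326, 288 and 329 in the IMQ libraries.

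Of 18 tested Langerhans and dendritic cell markers 0 rose and 0 fell in edgeR's test with all 6 libraries or without control 2, and 1 fell without control 3. Cd207, which encodes langerin, had 1358, 3182 and 1057 in the controls against 1180.2, 1655 and 1783 in the IMQ libraries (log2 fold change -0.28 ± 0.41), and its sign turned without control 2, to 0.35. By the Wald test of DESeq2, 1 of the 18 fell, and in edgeR's test 1 had an unadjusted p under 0.05 with all 6 libraries and 3 without control 2.

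Mast cell genes rose in 6 of 12 tested, against 4.05% of all tested genes. The number was 8 without control 2, 1 without control 1 or IMQ 5 and 3 without IMQ 4. Tpsab1, a tryptase, went from 103, 134 and 75.8 to 1257, 884 and 436 (log2 fold change 3.04 ± 0.43), Hdc, which makes histamine, rose by 2.60 ± 0.34 on the log2 scale, and Cma1, a chymase, rose by 1.01 ± 0.14 on the log2 scale. Eosinophil genes were sparse, with 6 of 13 tested, of which 0 rose and 2 fell (1 rose and 2 fell of 7 tested without control 2, and 1 fell without control 1, IMQ 4 or IMQ 6 and 0 without IMQ 5). With all 6 libraries 2.69% of all tested genes fell. Prg2, the major basic protein, had 3.62, 13.1 and 3.49 in the controls against 16.4, 0 and 0 in the IMQ libraries, and Epx, eosinophil peroxidase, had 0, 0 and 1.74 in the controls against 0, 0 and 0 in the IMQ libraries, so neither could be tested. Ear2, a ribonuclease that macrophages also make, fell from 737, 1286 and 476 to 54.6, 115 and 91.2 (log2 fold change -3.25 ± 0.45). It has near-identical paralogs. Ear1, which was not tested, went the other way, with 11 counts in the controls together and 204 in the IMQ libraries together. Its ratio was 20.8 (interval 11.4 to 42.3). Ear6, also not tested, had 11 and 2 counts, a ratio of 0.204 (interval 0.0219 to 0.933). Both intervals cover counting error only. Ccl24, an eotaxin, fell by 1.25 ± 0.22 on the log2 scale, and Ccl11, another eotaxin, had 832, 1512 and 936 in the controls against 733, 831 and 1281 in the IMQ libraries (log2 fold change -0.20 ± 0.30). The fall of Ear2 was lost without IMQ 5, and that of Ccl24 without control 1, IMQ 4, IMQ 5 or IMQ 6.

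Endothelial genes of leukocyte capture rose in 5 of 11 tested, against 4.05% of all tested genes. The number was 6 without control 2 and 3 without control 1, control 3, IMQ 4 or IMQ 5. Selp, P-selectin, went from 313, 290.1 and 340.0 to 1309, 1369 and 2212 (log2 fold change 2.37 ± 0.23, edgeR adjusted p = 0.0043), and Sele, E-selectin, from 273, 267 and 154 to 775, 951 and 1066 (log2 fold change 2.01 ± 0.26). Pecam1, a junctional protein of all endothelium, rose by 1.16 ± 0.15 on the log2 scale. Of 20 tested matrix proteases and inhibitors 7 rose and 1 fell, against 4.05% and 2.69% of all tested genes. Mmp3, stromelysin 1, went from 2361, 3388 and 4249.5 to 8999, 10736 and 16301 (log2 fold change 1.85 ± 0.29), and Timp3, an inhibitor bound to the matrix, fell from 13269, 17363 and 19345 to 6635, 6543 and 7587 (log2 fold change -1.27 ± 0.17). Without control 2 the numbers were again 7 and 1, and the number that rose was 2 without control 1 and 3 without IMQ 4 or IMQ 5.

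Hair follicle genes were among the largest falls, and here the calls depended on control 2. The summed normalized count of the 21 hair keratins was 67456, 2389 and 116867 in controls 1, 2 and 3 and 433, 605 and 345 in IMQ 4, 5 and 6. Control 2 thus lay between the other controls and the IMQ libraries. With all 6 libraries 3 of 9 tested hair keratins fell and 1 rose, against 2.69% and 4.05% of all tested genes. Without control 2, 8 fell and 0 rose, where 6.66% of all tested genes fell. Low hair genes were part of the reason for leaving out control 2. The counts without it are thus no independent test of hair keratins or follicle regulators. The number that fell was 1 without control 1, IMQ 4, IMQ 5 or IMQ 6. Krt71, a keratin of the inner root sheath, had 20663, 19.6 and 37206 in the controls against 9.84, 23.7 and 14.8 in the IMQ libraries, with control 2 among the IMQ values, and did not pass (log2 fold change -10.21 ± 2.37, edgeR adjusted p = 0.052). Krt75, of the companion layer, had 3970.3, 2028 and 13228 in the controls against 59.01, 230.3 and 99.7 in the IMQ libraries and fell (log2 fold change -5.62 ± 0.90). Krt28, also of the inner root sheath, had 5163, 83.97 and 6952 in the controls against 31.7, 25.7 and 30.8 in the IMQ libraries and fell (log2 fold change -7.11 ± 1.504), a call lost when any library other than control 2 was left out.

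The other 12 hair keratins had a library without a count and were not tested. Krt35, of the hair cortex and cuticle, had 3227, 33.8 and 4519 normalized counts in the controls and 0, 2.06 and 0 in the IMQ libraries. Krt81 had 256, 0 and 256 and none in any IMQ library, at least 53.7-fold lower from a floor of 3 counts per IMQ library. Dsg4, a desmosomal cadherin of the hair shaft, had 346, 9.81 and 421 and none in any IMQ library, at least 81.4-fold lower. In each, control 2 held fewer than controls 1 and 3. The exception to the direction was Krt84, a hair and tongue keratin, which rose from 16.3, 9.81 and 9.59 to 193, 91.5 and 37.1 (log2 fold change 3.15 ± 0.65), a call lost without any library other than IMQ 6.

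Regulators of the follicle fell in 11 of 22 tested genes and rose in 0, with a median of -2.57, where 2.69% of all tested genes fell. Shh had 978, 17.4 and 1336 in the controls against 6.56, 4.11 and 10.6 in the IMQ libraries and fell (log2 fold change -6.76 ± 1.52, edgeR adjusted p = 0.047). Lhx2, a transcription factor of follicle stem cells, went from 4747, 1323 and 5184 to 415, 266 and 357 (log2 fold change -3.44 ± 0.52), and Lgr5, a receptor that marks the bulge and germ, from 2251, 1272 and 3625 to 751, 443 and 352 (log2 fold change -2.21 ± 0.44). Control 2 was the lowest control in each but above every IMQ library. Foxn1, a transcription factor of hair and epidermis, had 966, 719 and 938 in the controls against 1248, 911 and 813 in the IMQ libraries and was not called (log2 fold change 0.18 ± 0.20). Without control 2, 19 of the 22 fell, against 6.66% of all tested genes. The number was 0 without control 1 or IMQ 5, 1 without IMQ 6, 2 without IMQ 4 and 4 without control 3.

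Pigment genes also depended on control 2. With all 6 libraries 0 of 12 were called in edgeR's test, where 11 had an unadjusted p under 0.05. By the Wald test of DESeq2 11 fell, against 7.39% of all tested genes. Without control 2, 11 fell in edgeR's test, against 6.66% of all tested genes. Control 2 was below both other controls in 11 of the 12. Tyr, tyrosinase, had 949, 182 and 2292 in the controls against 209.8, 136 and 46.7 in the IMQ libraries (log2 fold change -3.13 ± 0.93), with control 2 below IMQ 4. Pmel, a matrix protein of the melanosome, had 3816, 909 and 8223 in the controls against 673, 347 and 351 in the IMQ libraries (log2 fold change -3.24 ± 0.76), without overlap. Mc1r, the melanocortin receptor of melanocytes, which was named for the size of its fall, had 259.7, 34.9 and 990.2 in the controls against 14.2, 7.20 and 8.48 in the IMQ libraries and fell (log2 fold change -5.42 ± 1.23), a call lost when any library other than control 2 was left out.

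The calls of mitosis genes depended on control 2. Of 28 tested genes 0 were called with all 6 libraries, by edgeR or by the Wald test of DESeq2. In edgeR's test with all 6 libraries 0 had an unadjusted p under 0.05. Without control 2, 25 fell, against 6.66% of all tested genes, with a median of -0.74. Mki67, which encodes the Ki-67 antigen of cycling cells, had 17846, 6603 and 18011 in the controls and 10278, 10806 and 7834 in the IMQ libraries. Foxm1, a transcription factor of the cell cycle, had 3103, 759 and 3214 in the controls against 1449, 1401 and 1395 in the IMQ libraries. In all 28 genes control 2 was below every IMQ library and both other controls were above every IMQ library. Hair keratins and regulators were lower in control 2 as well, and their part in this result was not tested.

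**Figure D4:**
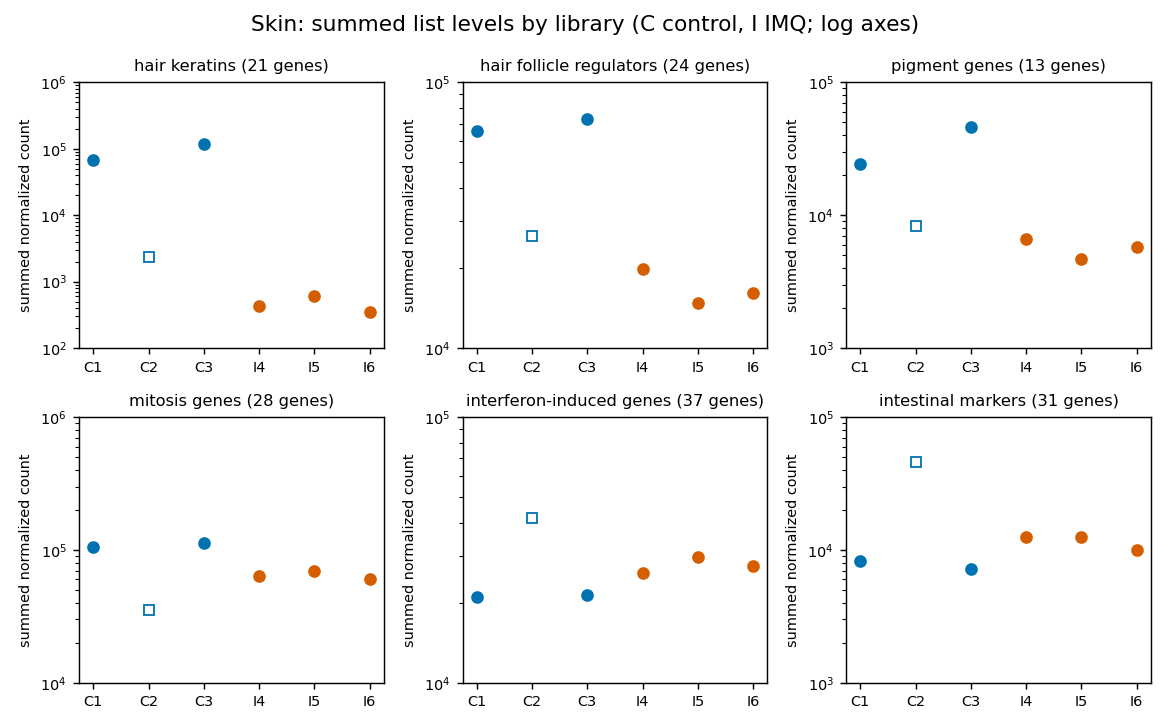
Each panel gives the summed normalized count of 1 gene list (y axis, log scale) in controls 1 to 3 (C1 to C3, blue, control 2 as an open square) and IMQ 4 to 6 (I4 to I6, orange). The mitosis sum of control 2, 35356, lies below the IMQ libraries, whereas controls 1 and 3, at 104968 and 112726, lie above them, and the intestinal markers are highest in control 2.

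Sebaceous genes fell in 6 of 18 tested and rose in 0, where 2.69% of all tested genes fell. The number that fell was 5 without control 2, 0 without IMQ 5, 1 without IMQ 4 and 2 without control 1. Awat2, which makes wax esters, went from 3505, 2321 and 1441 to 479.7, 419 and 603 (log2 fold change -2.27 ± 0.33), and Elovl6, a fatty acid elongase, from 67635, 68276 and 40151 to 13799, 9054 and 15456 (log2 fold change -2.20 ± 0.30). Mc5r, the melanocortin receptor of sebocytes, fell on the log2 scale by 1.44 ± 0.24. The groups did not overlap in these genes, and control 2 was the lowest control in 2 of the 18 genes. In the list of barrier lipid and cross-linking genes 2 of 23 rose and 2 fell, against 4.05% and 2.69% of all tested genes. Without control 2, 3 rose and 1 fell, without control 1, IMQ 4 or IMQ 5, 1 rose and 0 fell, without control 3, 1 rose and 2 fell, and without IMQ 6, 2 rose and 1 fell. Tgm3, a transglutaminase that cross-links the envelope, went from 2309, 2206 and 1308 to 17489, 12023 and 9093 (log2 fold change 2.73 ± 0.32), and Alox12e, an epidermal lipoxygenase, from 18259.9, 27244 and 8752 to 1500.4, 3844 and 3978 (log2 fold change -2.54 ± 0.52).

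Few adipocyte and skeletal muscle genes were called, whereas part of the smooth muscle genes fell. None of 19 adipocyte genes and none of 17 skeletal muscle genes was called in edgeR's test with all 6 libraries, where 4 and 0 had an unadjusted p under 0.05. Without control 2 again none was called (2 and 0 with an unadjusted p under 0.05), and without control 3, 1 adipocyte gene fell. By the Wald test of DESeq2 3 adipocyte genes fell and 0 skeletal muscle genes were called. Adipoq, the adipocyte hormone adiponectin, had 6029.6, 12645 and 4454 in the controls against 5806, 4051 and 4577 in the IMQ libraries (log2 fold change -0.68 ± 0.38), and Acta1, skeletal muscle actin, had 133507, 191890.0 and 163118 in the controls against 109768, 98596 and 221358 in the IMQ libraries (log2 fold change -0.18 ± 0.36). Of 10 smooth muscle genes 2 fell with all 6 libraries, against 2.69% of all tested genes. The number was 2 without control 2, 1 without control 3 or IMQ 6 and 0 without IMQ 4 or IMQ 5. By the Wald test of DESeq2 5 fell, against 7.39% of all tested genes. The 2 called by edgeR with all 6 libraries were Actg2 (log2 fold change -1.60 ± 0.29) and Myl9 (log2 fold change -1.29 ± 0.26). Of 14 collagen genes 0 were called by edgeR with all 6 libraries, 3 had an unadjusted p under 0.05 and 2 fell by the Wald test of DESeq2. In edgeR's test without control 2, 4 of the 14 fell, against 6.66% of all tested genes. Among these was Col6a1, with 36342, 24005 and 57109 in the controls against 19541, 22648 and 22087 in the IMQ libraries, in which control 2 was the lowest control.

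The genes called above were also examined with every library left out in turn. The calls of Unc93b1, Myd88, Il23r, Il1b, Lif, Socs3, Bcl3, Cxcl1, Cxcl5, Cxcl13, Csf3r, Mmp8, Fpr1, Stfa3, Adgre1, Itgam, Cd14, Cd79b, Hdc, Pecam1, Selp, S100a8, S100a9, Lcn2, Slpi, Saa3, Chil1, Krt6a, Krt6b, Krt16, Krt15, Krt2, Krt77, Sprr2a1, Sprr2a2, Sprr2a3, Sprr2b, Sprr2d, Sprr2e, Sprr2f, Lce3b, Tgm3, Klk13, Klk14, Serpinb3a, Serpinb3b, Serpinb3c, Ggt1 and Mt4 held whichever library was left out. The calls of Osm, Ccl27a, Ear2, Sele, Sprr2h and Elovl6 were lost without IMQ 5. The call of Sprr2i was lost without control 1. The calls of the remaining genes, Tlr7, Il23a, Il12rb1, Il12rb2, Il33, Il1f6, Il6, Hbegf, Epgn, Nrg1, Lrig1, Ccl3, Ccl4, Ccl24, Trdc, Zap70, Cma1, Tpsab1, Krt14, Rptn, Casp14, Sprr1b, Alox12e, Krt28, Krt75, Krt84, Lgr5, Lhx2, Shh, Mc5r, Awat2, Actg2, Myl9, Mmp3, Timp3, Dlx2, Mc1r and Adh6a, were lost in more than 1 of the 6 fits. The range of each log2 fold change over these fits kept its sign in every called gene.

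**Figure D5:**
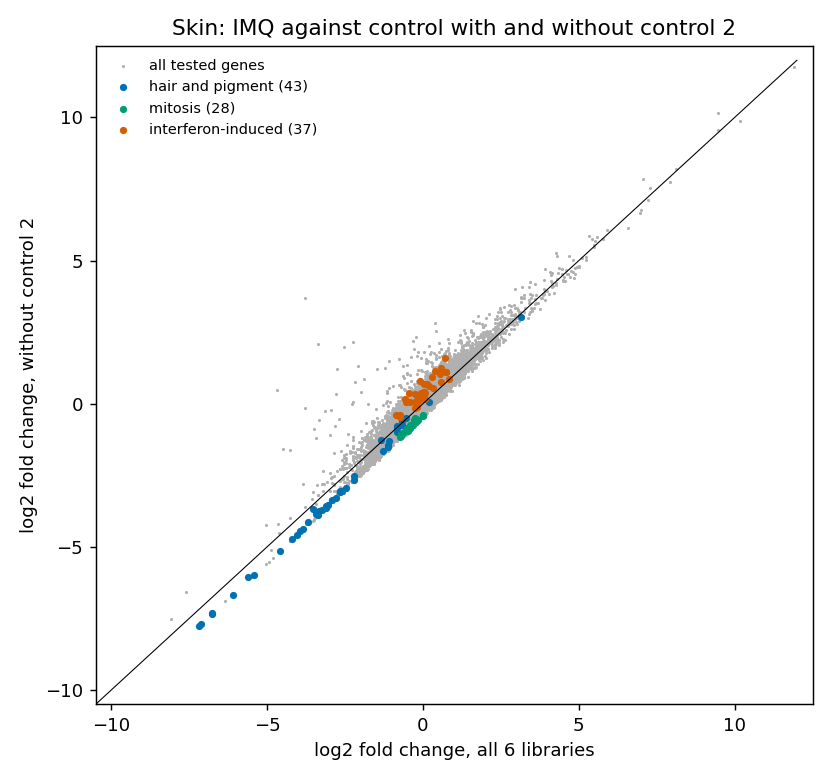
The log2 fold change with all 6 libraries (x axis) is plotted against that without control 2 (y axis) for every gene tested with both, with the line of equal values. Mitosis genes (28, green) and most hair and pigment genes (43, blue) lie below the line, interferon-induced genes (37, orange) lie mostly above it, and the largest rises, such as Sprr2b at 11.91 and 11.75, lie close to it.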

How the data were processed

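Total RNA of mouse skin was sequenced as paired-end mRNA libraries. The authors deposited 1 table with a read count, an FPKM and a TPM value per gene and library. The submitters' processing notes name bcl2fastq 2.20.0, Trimmomatic, HISAT2 2.1.0, StringTie 2.1.3b and the mm10 build. How multiply mapped reads and strand were treated is not given in the sources used here. The deposited counts were tested, the FPKM values deposited by the authors served to compare levels between genes, and the deposited TPM values were not used.

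The 3 control and 3 IMQ skin libraries were grouped by their labels, and the intestinal libraries served only to express the intestinal markers in skin as a percent. Genes with at least 1 count in all 6 libraries (20512 of 45777) were normalized by relative log expression and compared by the two-sided quasi-likelihood test of edgeR 4.0.16 with limma 3.58.1 in R 4.3.3, with p-values adjusted by Benjamini-Hochberg across the genes tested and a threshold of 0.05. The study's methods used the Wald test of DESeq2, run here with version 1.42.0 as an alternative. The SE was obtained from the size of the log2 fold change over the root of its F statistic. Normalized counts are counts over the effective library size, times the mean of the 6 effective sizes. Depth was 44995414 to 52492181 counts per library. Genes absent from a library were not tested. For these, a fold against a group without counts is a bound from a floor of 3 counts per library, and other ratios have exact 95% binomial intervals on summed counts, which cover counting error only.

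Genes were named by rule: the 10 largest rises and falls among called genes with a mean of at least 50 normalized counts and no overlap between the groups, up to 6 members of each list with the smallest adjusted p, and the genes that define a list. Other list members named in the text were chosen after their values were seen. The comparison and the 39 gene lists were chosen with earlier results of these data known. Promoter sequences and gene positions are from RefSeq GRCm38.p6, to which 45679 of 45777 genes were matched by Entrez identifier. The scripts were first tested on simulated data. Alternatives were TMM, DESeq2, other filters on low counts, a fold limit and leaving out each library. Python 3.11.15 with pandas 2.3.3, numpy 2.4.6 and matplotlib 3.10.9 was used for tables and figures.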

Additional observations from a re-analysis of the deposited data

How the results depend on the processing

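The number of calls depended more on the test and on single libraries than on scaling or filters. The Wald test of DESeq2 called 3030 genes, 1514 higher and 1516 lower, in place of 1382, 830 and 552. Leaving out 1 library gave 258 to 2521 calls, with 219 to 1139 higher and 39 to 1382 lower, in each case lowest without IMQ 5 and highest without control 2. TMM (1384 calls), no filter on low counts (1092 of 29186 genes), the filterByExpr filter (1509 of 19249) and a log2 fold change of at least 1 in either direction (1022) stayed within 1.5 times of the 1382. Of the 252 named genes tested, 141 were called, 57 of these in every fit without 1 library, and 0 called genes turned their sign under the alternatives run. The log2 fold change of 10 genes that were not called turned. Over the fits without 1 library, Lor ranged from -0.042 (without control 3) to 0.49, with -0.018 without IMQ 4. Flg ranged from -0.25 (without IMQ 4) to 0.95, with -0.020 without control 3, and Ivl from -0.35 (without IMQ 4) to 0.58, with -0.11 without control 3. Foxn1 ranged from -0.018 (without IMQ 4) to 0.31, Acta1 from -0.64 to 0.028 (without IMQ 5), and Mx1 from -0.12 (without control 1) to 0.68, with -0.028 without control 3. Cd207 ranged from -0.57 to 0.35, Ccl11 from -0.48 to 0.10, Isg15 from -0.98 to 0.17 and Ifit1 from -0.51 to 0.78, each highest without control 2, and Ifit1 also turned without IMQ 6, to 0.033. The causes were not tested. No paired analysis was possible because the control libraries are numbered 1 to 3 and the IMQ libraries 4 to 6 and so share no replicate number.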

Other observations

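Genes of the circadian clock, developmental Hox genes and early response genes were measured beside the inflammatory and epidermal genes. Of 17 tested clock genes 1 rose and 2 fell in edgeR's test, the same numbers as without control 2, and 0 were called without control 1 or IMQ 4. With all 6 libraries this was a share of 17.6%, against 6.74% of all tested genes. Bhlhe41, a repressor of clock transcription, had 1280.3, 1022 and 1307 normalized counts in controls 1, 2 and 3 and 409, 241 and 469.8 in IMQ 4, 5 and 6, a log2 fold change of -1.69 ± 0.26. Its relative Bhlhe40 moved the other way, from 3621, 4084 and 3625 to 6561, 5794 and 5535 (log2 fold change 0.66 ± 0.12). Cry2, a cryptochrome of the clock, had a log2 fold change of -0.64 ± 0.13. In none of the 3 genes did the groups overlap. The time of day of tissue collection was not given in the labels.

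Hox genes encode transcription factors that mark position along the body. Of 29 tested, 1 rose and 4 fell, a share of 17.2% against 6.74% of all tested genes. Without control 2, 1 rose and 9 fell, whereas 0 were called in edgeR's test without control 1, IMQ 4 or IMQ 5. Without control 3, 1 rose and 0 fell, and 0 rose and 1 fell without IMQ 6. Hoxd10 rose from 72.4, 76.3 and 82.8 to 187, 182 and 188 (log2 fold change 1.26 ± 0.20), with a narrow range in each group. Hoxc13, a regulator of hair keratins, fell from 1269, 359 and 2277 to 209.8, 153 and 152 (log2 fold change -2.92 ± 0.62), with control 2 the lowest control. Hoxa3, Hoxb3 and Hoxb5 had log2 fold changes of -0.77 ± 0.17, -1.16 ± 0.25 and -0.998 ± 0.22. Whether the libraries of both groups came from the same part of the body was not tested.

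Of 14 early response genes 1 rose, as did 1 without control 2, a share of 7.14% against 6.74% of all tested genes. Atf3, a stress-induced transcription factor, went from 289, 409 and 282 to 1852, 1066 and 930.0 (log2 fold change 1.98 ± 0.30), a call lost without control 1 or IMQ 5. Fos, a subunit of AP-1, had 5789, 8315 and 809.8 in the controls and 19902, 5041 and 3259 in the IMQ libraries, with overlapping groups, and was not called (log2 fold change 0.92 ± 0.92). Of 54 keratin-associated protein genes, which encode the matrix of the hair shaft, 4 had a count in all 6 libraries and 1 fell, whereas 2 of 5 fell without control 2 and 2 of 4 without control 3. Of all tested genes 2.69% fell with all 6 libraries and 6.66% without control 2. Krtap3-3, which fell with all 6 libraries, had 76.0, 73.1 and 73.2 in the controls and 12.02, 12.3 and 6.36 in the IMQ libraries (log2 fold change -2.84 ± 0.31), and here control 2 lay with the other controls. Of the 31 intestinal markers 10 were tested and 1 fell, against 2.69% of all tested genes. Without control 2, 3 rose and 2 fell, against 5.49% and 6.66% of all tested genes. In edgeR's test 2 fell without control 3, and 0 were called when control 1, IMQ 4, IMQ 5 or IMQ 6 was left out.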
